A study of Rattus norvegicus with 4 samples.

Results

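The genes described here are 10 chaperones, disulfide isomerases and stress factors of the endoplasmic reticulum (ER): Hspa5, Hsp90b1, Calr, Canx, Pdia3, Pdia4, Pdia6, P4hb, Xbp1 and Atf4. They were taken as all probe sets whose gene symbol in the platform annotation is one of these names, which gave 13 of the 15866 probe sets of the array that are not controls, or 10 of 10411 named genes. Canx had 3 probe sets, Pdia3 had 2 and the other genes 1 each. Kidney RNA was measured on 4 Affymetrix RAE-230A arrays from male rats aged 9 weeks, 1 array a group: SHR nicotine and SHR saline, and their Brown Norway (BN) counterparts, BN nicotine and BN saline. SHR is the spontaneously hypertensive rat, an inbred strain with inherited high blood pressure, and BN an inbred strain with normal blood pressure. The nicotine groups had been exposed to nicotine before birth and the saline groups to saline, per the labels, and the sources used here do not give its dose, route or days. Each array carried a pool of equal amounts of RNA, from 13 animals for SHR nicotine and 12 for every other pool. A pool gives 1 value with no spread between animals, so p-values here do not measure that spread. They rest on the spread between 4 arrays only, most of it taken from other probe sets of like signal.

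The ER folds proteins that are secreted or sent to membranes. Hspa5 (BiP) and Hsp90b1 (Grp94) are its general chaperones, Calr and Canx hold glycoproteins by their sugar chains, and the disulfide isomerases Pdia3, Pdia4, Pdia6 and P4hb form and rearrange disulfide bonds. When unfolded proteins gather, the sensors Ern1, Atf6 and Eif2ak3 start the unfolded protein response. Xbp1 and Atf6 raise chaperone genes in this response, and Atf4 raises genes of amino acid supply. In the kidney, tubule cells make large amounts of membrane transporters, and cells of the thick ascending limb secrete uromodulin.

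The values are MAS5 signals, intensities on a linear and arbitrary scale, so levels of different genes are not compared. A floor of 44.5, the 40th percentile of all signals, was set under low values before log2 was taken. A probe set entered a fit if the higher of its 2 group means reached 89.0, which is 2 times the floor. On each array 58.9% to 60.7% of probe sets reached the floor. Of the 13 probe sets, 12 passed, and each of these read above 89.0 on all 4 arrays, so none passed through 1 strain alone. The exception was the dim Pdia3 probe set 1392920_at, with signals of 64.0 and 60.2 in SHR nicotine and SHR saline and of 60.7 and 46.7 in BN nicotine and BN saline. The tissue label was met by markers of tubule cells: the signal of uromodulin, Umod, was 5256 and 5260 for the SHR pools and 4076 and 4044 for the BN pools. RNA integrity was read from the signal of a 3' probe set over the 5' probe set of the same gene. For beta-actin this ratio differed by strain, at 1.34 and 1.39 for the SHR pools and 1.49 and 1.54 for the BN pools. For Gapdh the strains overlapped, at 1.11 and 1.0 for the SHR pools and 1.09 and 1.07 for the BN pools. The part of RNA integrity in the results was not tested.

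Between the strains, 3 of the 10 genes rose in SHR: the chaperones Hspa5, Hsp90b1 and Calr. None fell. Over all 5444 genes tested, each by its brightest probe set, 8.12% rose and 9.24% fell. Whether sequence differences between the strains lie under the probes was not examined, so each strain difference here is one of hybridisation signal. The signal of Hspa5, the chaperone that also keeps the stress sensors silent, was 1166 in SHR nicotine and 1156 in SHR saline, against 725 in BN nicotine and 771 in BN saline. Both SHR pools stood far above both BN pools, and within a strain the pools were close. The difference averaged over treatments was 1.55-fold (log2 0.63, SE 0.07, adjusted p = 3.66e-06 with limma).

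Hsp90b1, the ER member of the Hsp90 family, had signals of 1080 in SHR nicotine and 1091 in SHR saline, against 749 in BN nicotine and 716 in BN saline. The strains again did not overlap. The average difference was 1.48-fold (log2 0.57, SE 0.07, adjusted p = 1.42e-05 with limma). Calr, which binds glycoproteins and calcium in the ER lumen, had signals of 1320 in SHR nicotine and 1303 in SHR saline, against 982 in BN nicotine and 957 in BN saline. Its average difference was 1.35-fold (log2 0.44, SE 0.07, adjusted p = 0.000149 with limma). Each of the 4 arrays was also left out in turn, which left 1 strain with 1 pool and strain as the only factor. The log2 difference then ran from 0.59 to 0.68 for Hspa5, from 0.54 to 0.60 for Hsp90b1 and from 0.42 to 0.45 for Calr. With no filter on dim probe sets none of these 3 genes passed the threshold of 0.05, at adjusted p of 0.312 to 0.315 with limma. Among the 7037 probe sets tested, Hspa5, Hsp90b1 and Calr ranked 182, 233 and 397 from the highest difference.

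**Figure D1:**
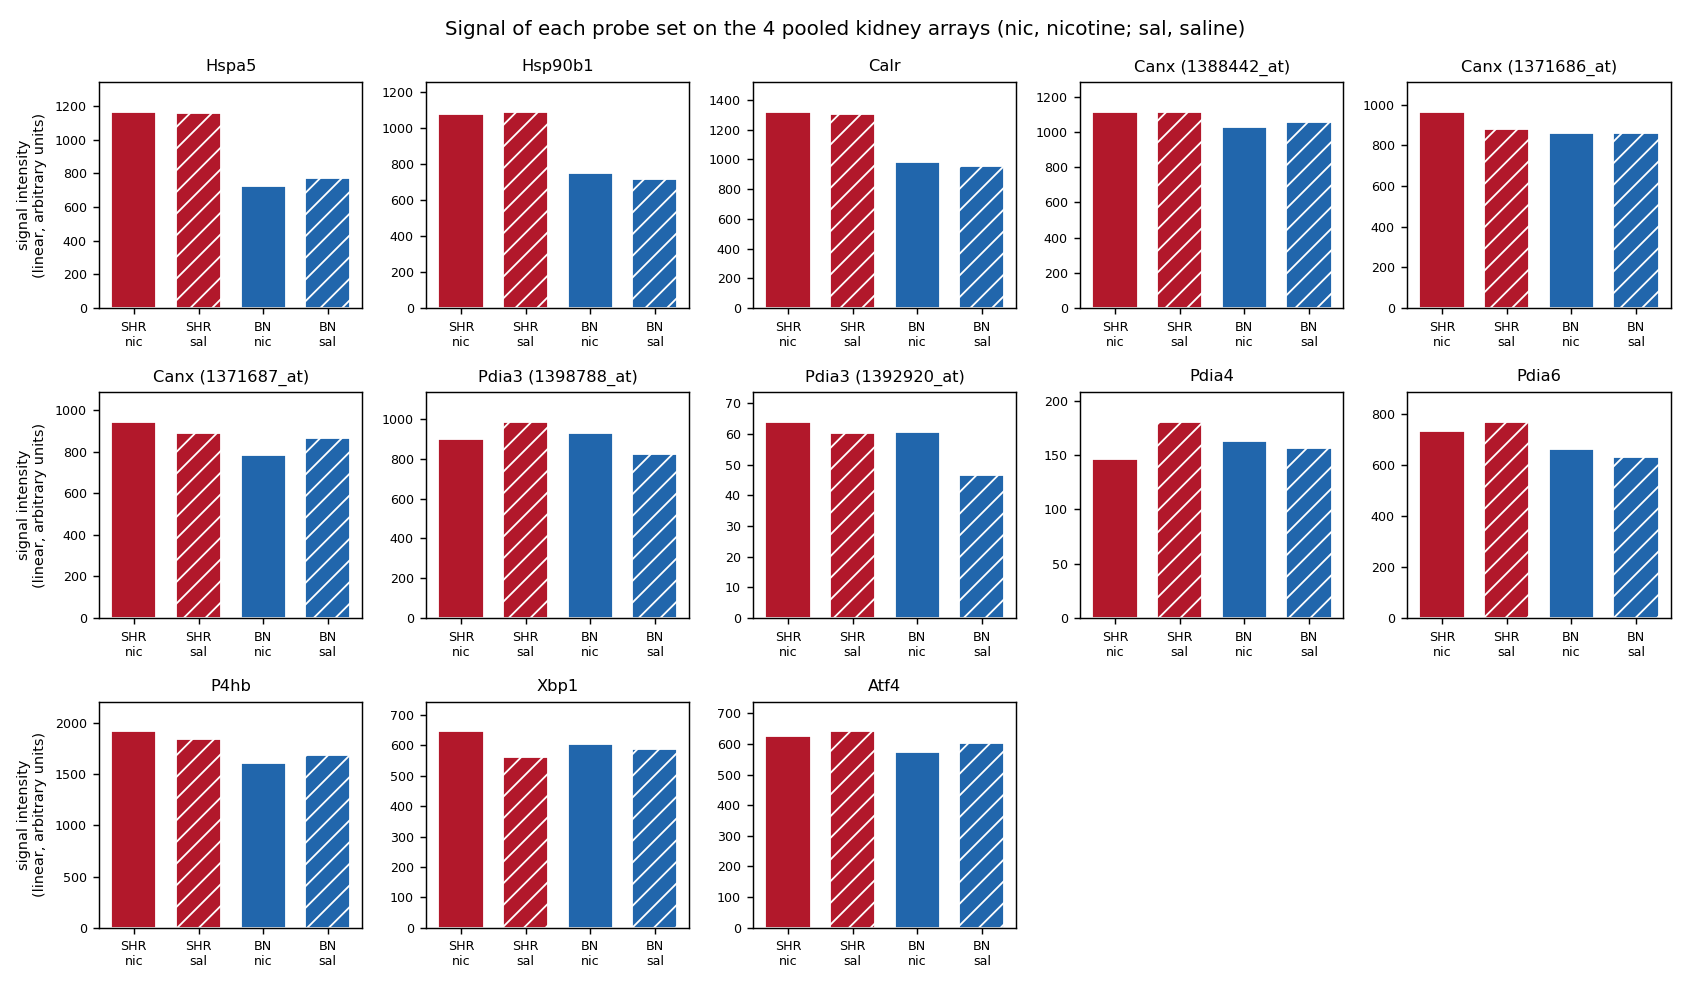
Signal intensity (linear, arbitrary units, axes from 0) of the 13 probe sets on the 4 arrays, SHR in red and BN in blue, nicotine pools plain and saline pools hatched. Hspa5, Hsp90b1 and Calr show the 2 SHR pools well above the 2 BN pools, while in Xbp1 and Pdia4 the strains overlap.

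The promoters of these genes are shown because 5 of the 8 genes with an entry in the RefSeq promoter table hold the ER stress response element. This element, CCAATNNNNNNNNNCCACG, is bound by NF-Y at its CCAAT end and by Atf6 at its CCACG end. Each window runs from 250 bases before to 50 after the gene's start and was searched on both strands. The assembly, GRCr8, is of a BN rat, so the sequences are those of BN, and those of SHR were not used here. The Hspa5 window lies at chr3:38452766-38453065 on the plus strand, Hsp90b1 at chr7:23012244-23012543 on the minus strand, Calr at chr19:40213117-40213416 on the plus strand, Canx at chr10:35157808-35158107 on the minus strand and Xbp1 at chr14:84604373-84604672 on the plus strand. Sequences read 5′ to 3′ along the gene, with each match in capitals.
Hspa5: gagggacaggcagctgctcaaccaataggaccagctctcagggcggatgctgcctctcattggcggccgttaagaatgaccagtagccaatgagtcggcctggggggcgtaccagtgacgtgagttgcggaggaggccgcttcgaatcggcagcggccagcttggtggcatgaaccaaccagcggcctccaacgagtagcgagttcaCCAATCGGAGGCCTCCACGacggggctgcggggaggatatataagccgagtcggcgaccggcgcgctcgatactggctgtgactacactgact
Hsp90b1: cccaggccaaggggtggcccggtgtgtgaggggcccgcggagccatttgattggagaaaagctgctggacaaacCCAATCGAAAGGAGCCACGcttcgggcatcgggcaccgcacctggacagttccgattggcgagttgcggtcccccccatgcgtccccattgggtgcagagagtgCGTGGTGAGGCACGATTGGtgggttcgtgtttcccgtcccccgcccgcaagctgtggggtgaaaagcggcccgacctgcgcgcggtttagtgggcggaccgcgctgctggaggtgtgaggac
Calr: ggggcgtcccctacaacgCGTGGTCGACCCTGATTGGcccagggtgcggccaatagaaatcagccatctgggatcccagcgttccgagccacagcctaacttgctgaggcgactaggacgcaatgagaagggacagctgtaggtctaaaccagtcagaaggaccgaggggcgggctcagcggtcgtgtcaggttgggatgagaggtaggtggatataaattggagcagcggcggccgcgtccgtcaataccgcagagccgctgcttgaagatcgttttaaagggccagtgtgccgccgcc
Canx: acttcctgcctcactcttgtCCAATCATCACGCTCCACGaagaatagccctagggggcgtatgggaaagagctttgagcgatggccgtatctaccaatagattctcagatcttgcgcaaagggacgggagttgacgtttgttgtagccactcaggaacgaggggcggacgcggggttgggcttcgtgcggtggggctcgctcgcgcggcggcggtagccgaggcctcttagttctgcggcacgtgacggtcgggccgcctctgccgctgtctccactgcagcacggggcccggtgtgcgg
Xbp1: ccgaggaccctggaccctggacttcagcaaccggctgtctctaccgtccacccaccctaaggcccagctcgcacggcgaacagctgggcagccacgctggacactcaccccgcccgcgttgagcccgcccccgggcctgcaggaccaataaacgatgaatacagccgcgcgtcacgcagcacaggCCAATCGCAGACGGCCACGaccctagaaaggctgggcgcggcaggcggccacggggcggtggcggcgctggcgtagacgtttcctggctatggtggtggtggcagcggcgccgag

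The Hspa5 match began 43 bases before the start, on the strand of the gene. Hsp90b1 held 2 matches, which began 176 and 72 bases before it, the second on the opposite strand. The matches of Calr on the opposite strand and of Canx on the gene's strand began 232 and 230 bases before the start, and that of Xbp1 began 65 bases before it. Over all 33469 windows of this length, 22 held a match, or 0.0657%. Genes and element were both picked for their known link to the ER, so the matches among these genes are not a test. All 3 genes that rose hold the element in these windows, and so do Canx and Xbp1, which did not pass the test. Pdia4, P4hb and Atf4 had no match in their windows, and Pdia3 and Pdia6 are named only. The shorter element ATTGGNCCACG, which holds CCACG and, on the other strand, CCAAT, was in none of the 8 windows, against 0.0508% of all windows. TGACGTGG, a form of the unfolded protein response element, was also in none of the 8, against 0.595%. The same held for TGATGNAAT, an amino acid response element, against 1.09%. Forms of these elements with other bases were not searched. The Hspa5 window above reads tgacgtga, which differs from TGACGTGG in the last base and was not counted.

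Canx is the membrane-bound partner of Calr in holding glycoproteins. Its brightest probe set, 1388442_at, read 1114 and 1113 in SHR nicotine and SHR saline, against 1027 and 1056 in BN nicotine and BN saline. Probe set 1371686_at read 965 and 881 for the SHR pools, against 862 and 863 for the BN pools, and 1371687_at read 944 and 889 for the SHR pools, against 784 and 867 for the BN pools. All 3 put both SHR pools above both BN pools by a small margin. None passed the test, with log2 differences of 0.10, 0.10 and 0.15 and adjusted p of 0.373, 0.401 and 0.187 with limma. Their 95% intervals ran from -0.05 to 0.24, from -0.06 to 0.25 and from -0.01 to 0.31. The 3 probe sets carry the same accession and are not independent measures.

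Of the disulfide isomerases, none passed the threshold, and P4hb and Pdia6 were nearest to it. P4hb, the founding member of the family and a subunit of collagen prolyl 4-hydroxylase, read 1915 in SHR nicotine and 1843 in SHR saline, against 1603 in BN nicotine and 1688 in BN saline. Its strains did not overlap, and the difference was 0.19 on the log2 scale (SE 0.07, adjusted p = 0.0532 with limma). Pdia6, which binds Hspa5 and acts on the sensor Ern1, read 731 and 769 for the SHR pools, against 663 and 632 for the BN pools. Its difference was 0.21 (SE 0.08, adjusted p = 0.0647 with limma). With the floor at the 60th percentile both passed, at adjusted p of 0.0317 for P4hb and 0.0423 for Pdia6 with limma.

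Pdia3, the isomerase that works with Calr and Canx on glycoproteins, read 901 in SHR nicotine and 987 in SHR saline, against 929 in BN nicotine and 825 in BN saline. Here the strains overlapped, since the SHR nicotine pool lay below the BN nicotine pool. The difference was 0.11 with an interval of -0.06 to 0.27 (adjusted p = 0.391 with limma). Pdia4, a luminal isomerase, gave the dimmest of the signals that passed, 147 and 181 in SHR nicotine and SHR saline, against 162 and 156 in BN nicotine and BN saline. The SHR pools were the lowest and the highest of the 4. The difference of 0.03 had the widest interval of the 12 probe sets, -0.25 to 0.31 (adjusted p = 0.899 with limma).

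Neither stress factor passed the test. Xbp1, the transcription factor whose messenger RNA is spliced by Ern1, read 646 in SHR nicotine and 562 in SHR saline, against 604 in BN nicotine and 587 in BN saline. The BN pools lay between the SHR pools, and the difference was 0.02 with an interval of -0.15 to 0.18 (adjusted p = 0.908 with limma). Spliced and unspliced Xbp1 were not told apart here. Atf4, whose protein level is set largely by translation, read 625 and 640 for the SHR pools, against 572 and 604 for the BN pools. Its strains did not overlap, and the difference was 0.11 with an interval of -0.06 to 0.27 (adjusted p = 0.384 with limma).

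Counted together, 3 of the 12 probe sets passed the strain test, where 18.1% of all probe sets tested did. As higher in SHR 3 of 12 passed, where 8.67% did, and as lower 0 passed, where 9.42% did. The 12 were not matched with all probe sets for signal level. Bright probe sets had smaller SE, 0.07 for Hspa5 against 0.13 for the dim Pdia4, so a like difference passes more easily in them. All 12 had a log2 difference above 0, against 50.5% of all probe sets, and in 9 of 12 both SHR pools read above both BN pools, against 30.8%. Their median log2 difference was 0.13, against 0.00 over all probe sets tested. The 3 Canx probe sets are not independent. By gene, 10 of 10 had a difference above 0, against 50.2% of all genes tested. In 7 of 10 both SHR pools read above both BN pools, and the share of all genes was not counted. Comparing the pools within each treatment put the same 3 genes in the lead. The average difference is the mean of these 2 comparisons, so they are its parts and not a separate result. Under nicotine 4 of 12 were at least 1.2-fold higher in SHR, where 16.8% of measured probe sets were: Hspa5, Hsp90b1, Calr and Canx 1371687_at. Under saline 4 of 12 were, where 17.5% were: Hspa5, Hsp90b1, Calr and Pdia6. At 1.5-fold the count was 1 of 12 under each treatment, Hspa5 under nicotine at 1.61-fold and Hsp90b1 under saline at 1.52-fold, where 4.2% and 4.17% of measured probe sets were that much higher. Hspa5 under saline lay just under it, at 1.4998-fold.

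**Figure D2:**
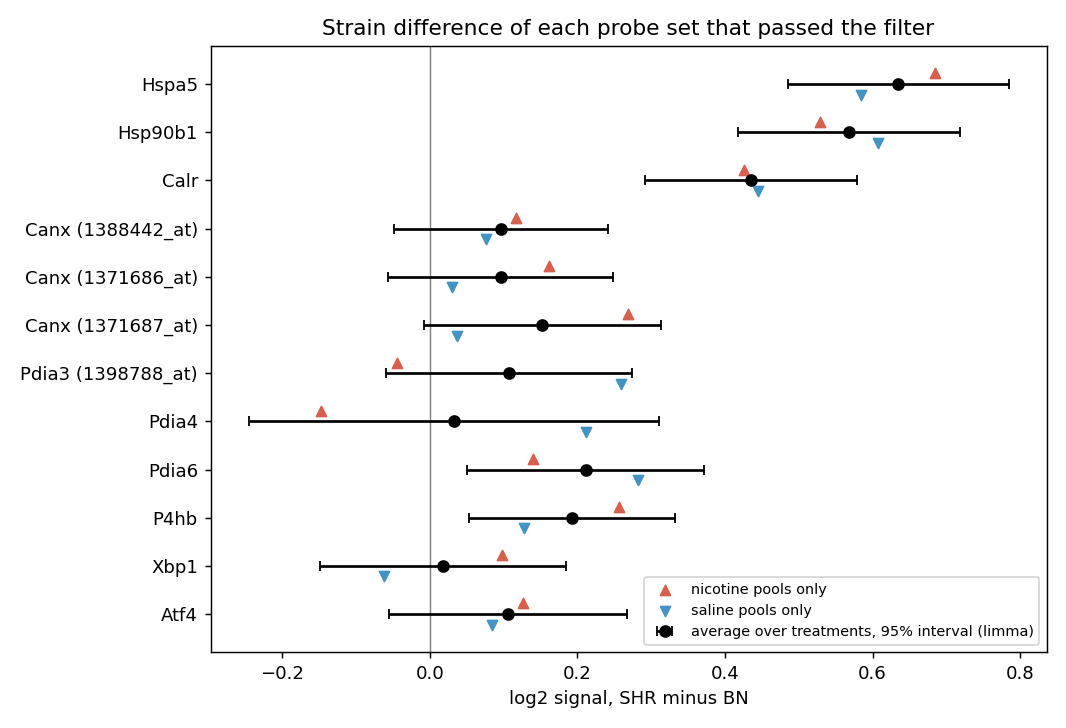
Log2 signal, SHR minus BN, for the 12 probe sets that passed the filter: black points with 95% intervals from limma are the average over treatments, triangles the nicotine and the saline pools alone. The intervals of Hspa5, Hsp90b1, Calr, Pdia6 and P4hb lie above 0, of which the first 3 pass after adjustment over all probe sets.

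In whole kidney, fewer cells of a type and less RNA per cell cannot be told apart, and marker genes of several cell types also differed between the strains. Of 8 proximal tubule markers, all passed the filter, 4 rose and 2 fell in SHR. Their summed signal was 18633 and 18932 for the SHR pools against 17384 and 17777 for the BN pools. This sum weighs bright genes most. Slc34a1, the brightest of the 8 and among those that rose, read 4922 and 5024 for the SHR pools against 3872 and 3888 for the BN pools. The 2 that fell were Cubn, by 0.57 on the log2 scale, and Slc4a4, by 0.24. Of 6 macrophage markers, 3 passed the filter and 1, Lyz2, rose, and the summed signal of the 6 was 3707 and 3138 in SHR nicotine and SHR saline against 2640 and 2362 in BN nicotine and BN saline. Other markers fell in SHR. Of the 2 markers of the thick ascending limb, Umod rose while Slc12a1, its sodium, potassium and chloride cotransporter, fell by 0.76 on the log2 scale. The water channels Aqp2 and Aqp3 of principal cells fell by 0.41 and 0.30. Scnn1g, the remaining principal cell marker, went the other way, at 0.42, and did not pass the test (adjusted p = 0.0529 with limma). The summed signal of the 3, most of it from Aqp2 and Aqp3, was 1245 and 1493 in SHR nicotine and SHR saline. In BN nicotine and BN saline it was 1624 and 1725. Podxl of podocytes fell by 0.55 and Slc12a3 of the distal convoluted tubule by 0.32. Lpl, the only 1 of 3 adipocyte markers on the array that passed the filter, fell by 0.63. Synpo of podocytes and Calb1 of the distal convoluted tubule did not pass the test, at -0.10 and 0.03. Of 4 endothelial markers, Kdr rose and Vwf fell, the second with both SHR pools under the floor, at 42.7 and 40.8, against 144 and 124 for the BN pools. Slc4a1 of intercalated cells rose by 0.42. Ptprc, which defines leukocytes, stayed under the floor on all 4 arrays. Of 8 markers of B cells and plasma cells, whose ER is large, only Cd79b was among the named probe sets, at 5.65 and 20.7 for the SHR pools and 5.03 and 4.06 for the BN pools, under the floor throughout. The part of cell makeup in the chaperone results was not tested.

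Other folding factors of the ER behaved unequally. Of 40 genes listed, 37 had a named probe set and 29 passed the filter, and 4 of these rose in SHR and 1 fell, to be read against the same 8.12% and 9.24% of all genes. Serpinh1, the collagen chaperone Hsp47, had signals of 335 and 331 for the SHR pools, against 164 and 153 for the BN pools, a 2.10-fold difference (adjusted p = 7.99e-07 with limma). The suffix of this probe set marks probes that may match several transcripts. The other Serpinh1 probe set read 1.38 and 1.89 for the SHR pools and 2.66 and 2.31 for the BN pools. These signals lie under the floor and do not show the difference. Creld2 and Manf, both ER proteins known to be induced by ER stress, differed by 2.02-fold and 1.67-fold. Creld2 read 170 and 182 for the SHR pools, against 83.2 and 91.4 for the BN pools (adjusted p = 5.45e-05 with limma). Its BN pools averaged under 89.0, so it passed the filter through SHR alone, where it is high. Manf read 310 and 290 for the SHR pools, against 183 and 177 for the BN pools (adjusted p = 6.23e-05 with limma). The fourth gene that rose was Erp29, at 1.23-fold, and the one that fell was the prolyl isomerase Fkbp2, by 0.28 on the log2 scale. Beside Serpinh1, 1 of 5 fibroblast and smooth muscle markers that passed the filter, Col3a1, also rose. The summed signal of the 6 markers was 1547 and 1567 in SHR and 1352 and 1287 in BN. The part of these cells in the Serpinh1 difference was not tested.

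The median log2 difference of the 29 genes was -0.01, against 0.00 over all genes tested. Of 29 genes of translocation and N-glycosylation that passed the filter, 1 rose and 0 fell. The one was Sec61a2, a subunit of the translocation channel, with 133 and 106 for the SHR pools against 67.9 and 83.3 for the BN pools (1.58-fold, adjusted p = 0.0161 with limma), and it too passed the filter through SHR alone. Of 18 genes of ER-associated degradation, 0 passed the test in either direction, where 17.4% of all genes tested did. Of the 18, 14 read lower in SHR on average, where 49.8% of all genes did, with a median of -0.10. The largest differences there were -0.29 for Selenos and 0.28 for Derl2, with adjusted p of 0.14 and 0.247 with limma.

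Of 9 genes of unfolded protein response signalling that passed the filter, 0 passed the test. The largest differences were 0.45 for Ddit3 (CHOP), a transcription factor of prolonged stress, and 0.24 for Cebpb, with adjusted p of 0.0712 and 0.359 with limma. Ddit3 read 134 and 102 for the SHR pools, against 87.5 and 83.6 for the BN pools, and passed the filter through SHR alone. The sensor Eif2ak3 did not pass the filter, at 55.2 and 83.8 for SHR nicotine and SHR saline against 76.8 and 76.5 for BN nicotine and BN saline. Ern1 and Atf6 were not analysed here. Of 17 targets of Atf4, 2 rose and 2 fell, or 11.8% each, near the 8.12% and 9.24% of all genes. The alanyl-tRNA synthetase Aars1 was 1.53-fold higher, and Ddit4, an inhibitor of mTORC1, was 0.59 higher on the log2 scale. The receptor Vldlr fell by 0.72 on the log2 scale and Psat1, of serine synthesis, fell by 0.26. Vldlr read 56.8 and 70.9 for the SHR pools against 103 and 106 for the BN pools, so it passed the filter through BN alone, and its other probe sets did not pass. In these 5 lists together 10 of 102 genes passed, 7 higher and 3 lower, or 9.8%, where 17.4% of all genes tested did. Of the 10, 3 (Creld2, Sec61a2 and Vldlr) had passed the filter through 1 strain alone. With strain as the only factor the count was 8 with all 4 arrays, 6 without SHR nicotine, 5 without SHR saline, 4 without BN nicotine and 4 without BN saline.

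**Figure D3:**
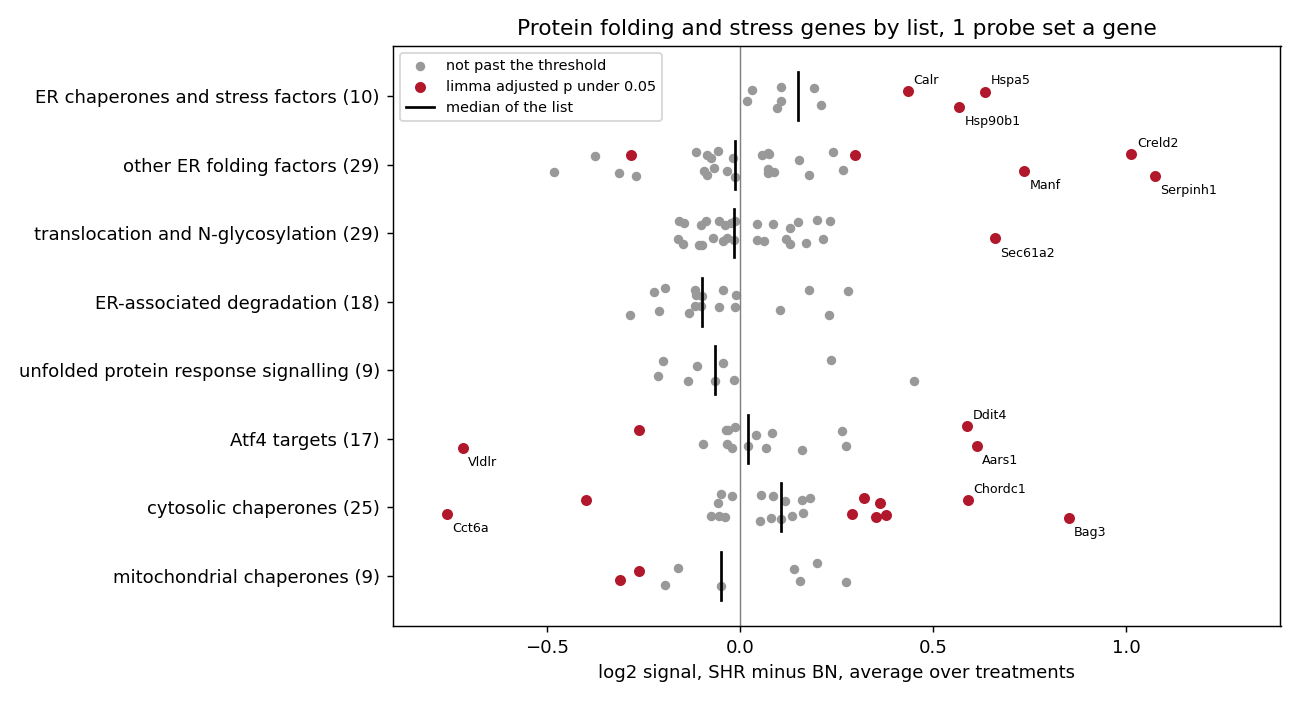
Log2 signal, SHR minus BN averaged over treatments, for the genes of each list that passed the filter (number in brackets), 1 probe set a gene, with red for limma adjusted p under 0.05, grey for the others and a black bar at the list's median. The ER chaperones and stress factors have a median of 0.15 over 10 genes, and the lists of degradation and signalling have no red point.

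Chaperones outside the ER were set beside them. Of 25 cytosolic chaperones and co-chaperones that passed the filter, 7 rose and 2 fell in SHR (28% and 8%, where 8.12% and 9.24% of all genes did), with a median of 0.11. Bag3, a co-chaperone of Hsp70, was 1.80-fold higher, Chordc1, a partner of Hsp90, 1.51-fold higher and Dnajb1, a co-chaperone of Hsp70, 1.30-fold higher. Cct6a, a subunit of the cytosolic chaperonin, fell by 0.76 on the log2 scale and the small heat shock protein gene Hspb6 fell by 0.40. Of 9 mitochondrial chaperones and proteases, 0 rose and 2 fell (22.2%, where 9.24% of all genes did), Grpel1 by 0.31 and Hspa9, the mitochondrial Hsp70, by 0.26. The other probe sets of Hspa9 did not show this, with log2 differences of -0.01 and 0.44 and adjusted p of 0.944 and 0.116 with limma.

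Nicotine before birth was compared with saline next, which is the question the series addresses. Averaged over strains, 0 of the 12 probe sets passed the test with limma and 0 had an unadjusted p under 0.05, and over all 6924 probe sets tested 0% passed and 376 had an unadjusted p under 0.05. The average log2 differences, nicotine minus saline, ran from -0.12 for Pdia4 to 0.12 for Xbp1. For Hspa5, Hsp90b1 and Calr they were -0.04, 0.03 and 0.03. The 95% intervals for these 3 were -0.19 to 0.11, -0.13 to 0.18 and -0.12 to 0.17. The interval was widest for Pdia4, at -0.40 to 0.16, and that of Xbp1 ran from -0.05 to 0.29.

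Within a strain there is 1 pool for each treatment, and no test was possible. In SHR, 1 of 12 probe sets differed by at least 1.2-fold between nicotine and saline, where 17.8% of measured probe sets did, and 0 by 1.5-fold, where 1.98% did. The one was Pdia4, at 147 under nicotine and 181 under saline, a log2 ratio of -0.30. Xbp1 had the largest positive ratio, 0.20, followed by Canx 1371686_at at 0.13. In BN, 0 of 12 differed by at least 1.2-fold, where 13.7% of measured probe sets did, or by 1.5-fold, where 1.63% did. The largest ratios there were 0.17 for Pdia3 1398788_at and -0.15 for Canx 1371687_at. The median of the absolute log2 ratios was 0.06 in SHR and 0.07 in BN over the 12, against 0.11 and 0.10 over all measured probe sets. The 2 sets of probe sets were not matched for signal level. The ratio had opposite signs in SHR and BN for 9 of the 12 probe sets, where 51.1% of all probe sets tested did, and for 7 of the 10 genes by brightest probe set, where 51.4% of all genes did. In the 7 other lists the median nicotine log2 ratio ran from -0.07 to 0.03 in SHR and from -0.04 to 0.04 in BN.

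**Figure D4:**
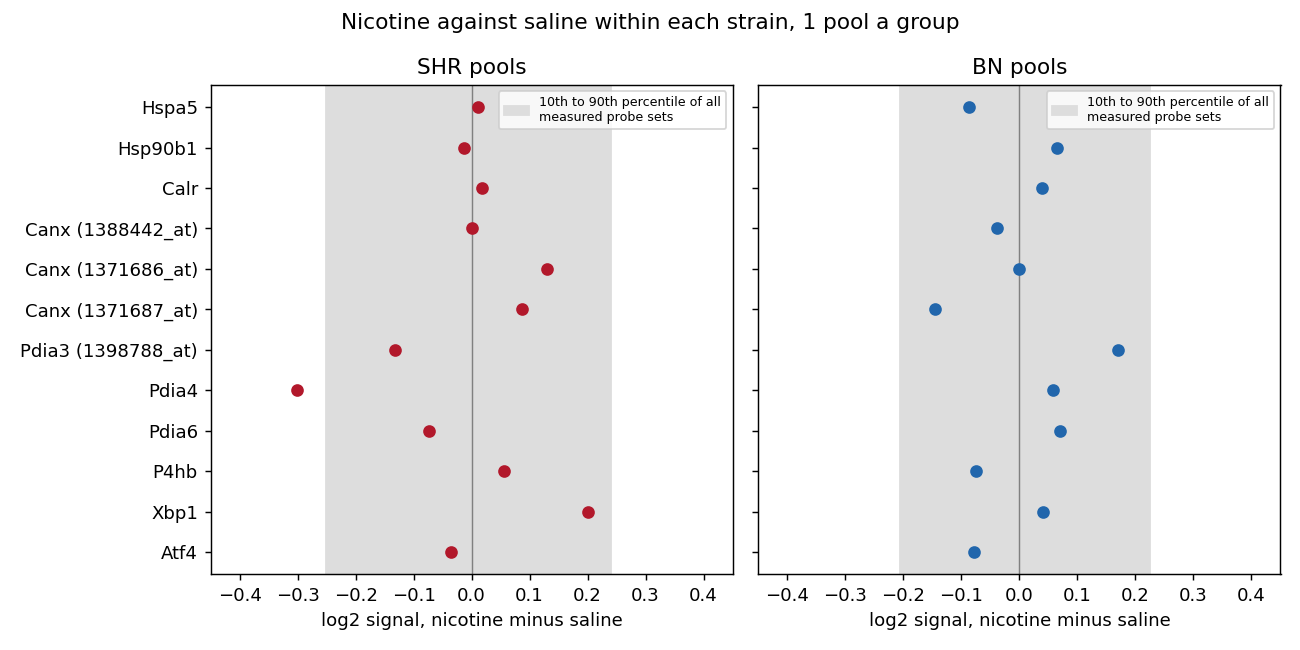
Log2 signal, nicotine minus saline, of the 12 probe sets for the SHR pools (left) and the BN pools (right), with grey bands from the 10th to the 90th percentile of all measured probe sets. Pdia4 in SHR, at -0.30, is the one point outside the band.

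Across the 4 pools, the order of the signals put both SHR pools first for Hspa5, Hsp90b1, Calr, Canx, Pdia6, P4hb and Atf4. Such an order was seen in 30.8% of all probe sets tested, and its share by gene was not counted. In Hsp90b1, Pdia6 and Atf4 the highest was SHR saline, and in Hspa5, Calr, Canx and P4hb it was SHR nicotine, though neighbouring pools of a strain have no replicate that would set them apart. For Hspa5 the 2 SHR pools differed by 0.01 on the log2 scale and the 2 BN pools by 0.09, against 0.68 between strains under nicotine and 0.58 under saline. The genes whose centred log2 profile over the 4 pools was nearest to that of Hspa5, among 1008 candidates, were Aars1, Gfra1, Nat8f3, Sypl2 and Prom1, at Euclidean distances of 0.03 to 0.04. With 4 points the likeness rests on the strain difference of 0.61 to 0.66 that they share.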

How the data were processed

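Kidney RNA of 4 groups of male rats was pooled by group and hybridised to 1 array a group. The deposited values are signal intensity, made by the authors with MAS5 per the submitters' processing notes, which give neither its version nor its settings. Their 2% trimmed mean was 150.04 on every array, and they were used as deposited. The number of arrays limits the precision.

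Symbols came from the platform annotation: 12783 probe sets had 1, 312 several and 2771 none. They were updated by gene identifier to RefSeq symbols (GRCr8). The 57 control probe sets were left out. Limma 3.58.1 in R 4.3.3 fitted strain and treatment to log2 signals of all probe sets past the filter, with an intensity trend, and p-values were adjusted over all probe sets by Benjamini-Hochberg (threshold 0.05). It leaves 1 residual degree of freedom, which also holds any nicotine response that differs between strains, and prior degrees of freedom of 16.5 for strain and 14.0 for nicotine. The steps were tested on simulated data. Genes of each list were represented by the brightest probe set. All probe sets of the 10 genes are described. Of each list up to 3 called genes in each direction with the largest difference are named, or, with none called, the 2 largest differences. Erp29, Col3a1, Lyz2, other markers and the stress targets listed under other observations were named outside this rule, after their values were seen. The genes and lists were chosen with earlier results of these data known. Motifs in promoters were counted in Python 3.11.15.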

Additional observations from a re-analysis of the deposited data

Results flagged for a closer look

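The nicotine log2 ratio had opposite signs in the 2 strains for 9 of the 12 probe sets that passed the filter, where 51.1% of all 7037 tested did so. By gene, which counts the 3 Canx probe sets once, it was 7 of 10, where 51.4% did. With 1 pool a group the difference between the strains was not tested. As SHR minus BN, it was -0.36 for Pdia4, whose ratios were -0.30 in SHR and 0.06 in BN. It was -0.30 for Pdia3 1398788_at, with -0.13 in SHR and 0.17 in BN, and -0.14 for Pdia6, with -0.07 and 0.07. It was 0.23 for Canx 1371687_at, 0.13 for Canx 1371686_at and 0.041 for Canx 1388442_at. For P4hb it was 0.13, for Hspa5 0.10 and for Hsp90b1 -0.078.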

How the results depend on the processing

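Alternatives were chosen with earlier results known, and 2 of them, no floor and a filter at 1.5 times the floor, after these values were seen; both left the counts of strain and nicotine calls among the 12 probe sets and of strain calls in the ER lists as reported, and were not run for the other counts. With no filter on dim probe sets, 0 of the 12 probe sets and 0 of the ER list genes passed for strain. The adjusted p of Hspa5, Hsp90b1 and Calr was then 0.315, 0.313 and 0.312, with 5493 probe sets at the floor on all 4 arrays. With the floor at the 60th percentile, 5 probe sets passed, adding P4hb (adjusted p = 0.0317 with limma) and Pdia6 (0.0423). P4hb also passed with robust eBayes (0.04) and with 1 probe set a gene (0.0496). Without each array in turn, with strain as the only factor and a lone pool assumed to vary like the others, 3 probe sets passed every time and the count of ER list genes was 4 to 6. Over these fits the Pdia4 difference ran from -0.12 (without SHR saline) to 0.18, and that of Xbp1 from -0.083 (without SHR nicotine) to 0.12, with -0.0027 without BN saline. The cause was not tested. The count of nicotine calls and the 1.5-fold nicotine counts stayed at 0 in each alternative run for them, and the 1.2-fold nicotine counts were not rerun. No paired analysis was possible because each group has 1 array and the labels give no replicate numbers; treatment, which matches SHR with BN pools, is a term of the fit as reported.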

Other observations

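Several further genes known to be induced by the unfolded protein response did not pass the strain test. Hyou1, an ER chaperone of the Hsp70 group, read 104 and 107 for the SHR pools, against 128 and 126 for the BN pools (log2 -0.27, adjusted p = 0.24 with limma). Dnajb9 and Dnajb11, co-chaperones of Hspa5, differed by 0.07 and 0.15, with adjusted p of 0.712 and 0.46 with limma. Sdf2l1, a partner of Hspa5 and Dnajb11, read 255 and 260 for the SHR pools, against 221 and 207 for the BN pools (log2 0.27, adjusted p = 0.0933 with limma). Herpud1, a membrane protein of ER-associated degradation, differed by 0.23 (adjusted p = 0.0818 with limma).

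The 22 promoter windows with the ER stress response element belong to 21 genes, of which 11 passed the filter. Beside Hspa5, Hsp90b1, Calr, Canx and Xbp1, these were 6 genes, of which Creld2 was called higher in SHR and Ppm1l lower, where 8.12% and 9.24% of all genes tested were. Creld2 had passed the filter through SHR alone and Ppm1l through BN alone, each the strain where it is high. The windows of Hyou1, Dnajb11 and Herpud1 hold the shorter element ATTGGNCCACG. Of the 6 genes with that element that passed the filter, 0 passed the strain test in either direction with limma, where 17.4% of all genes tested did.

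Among the ER lists, 2 genes chosen after their values were seen had uneven nicotine ratios in the strains. Selenos, a selenoprotein of ER-associated degradation, read 351 in SHR nicotine and 241 in SHR saline, and 331 in BN nicotine and 379 in BN saline. Eif2ak3, one of the stress sensors, had a log2 ratio of -0.60 in SHR, nicotine over saline, with both signals under 89.0. Neither difference has a replicate.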
